A study of Mus musculus with 13 samples.

Results

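*Cd4*, *Cd8a* and *Cd8b1* encode the coreceptors of T cells, and they were selected by name as 3 of 22329 mouse protein-coding genes that could be placed on maps of contact with pericentromeric satellite repeats. CD4 is a single-chain receptor that binds MHC class II, whereas CD8 is a dimer whose chains, CD8 alpha and CD8 beta, are encoded by *Cd8a* and *Cd8b1* and bind MHC class I. Thymocytes pass through a stage at which both coreceptors are made and then keep CD4 or CD8, which is why these genes are standard examples of lineage choice in the thymus. Embryonic stem cells, neural precursors and astrocytes are not known for using either coreceptor.

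The maps were made by sat4C, in which the major satellite repeats are the viewpoint of a chromosome conformation capture experiment, so that a sequenced 4C fragment end marks DNA that lay near a chromocenter. A hidden semi-Markov model (HSMM) had labeled each of 399232 fragment ends as lying inside or outside a pericentromere-associated domain (PAD). Thymus came from 3 adult male C57BL/6 mice with 6 sets of reads, and was whole disaggregated tissue, so its calls average over all of its cells. Embryonic stem cells (ESCs) of the line IB10 (129/ola) had 3 replicates, whereas neural precursor cells (NPCs) made from these ESCs and astrocytes (ACs) made from the NPCs had 2 each, so that all cultured samples descend from 1 line. No altered allele or agent is named for any group beyond fixation in formaldehyde. Thymus replicates were each read on an Illumina GAII and an Illumina HiSeq, whereas all cultured samples were read on the HiSeq only. Strain, tissue, culture and sequencing instrument therefore differ together between thymus and the other 3 cell types, so that their parts cannot be told apart. Each cell type is represented by 1 consensus call per fragment end, and reads or calls of single replicates were not analysed here, so the depth is unknown, no spread between replicates can be given and no test was made between cell types. Expression was not measured here, so the identity of the cells could not be checked against marker genes.

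A gene was called by the domain that holds the midpoint of its body, and a border was placed at the center between neighboring fragment ends with different calls. All 3 genes lie on Chromosome 6 (mm9). *Cd8b1* (ENSMUSG00000053044.7, 71272830 to 71287471, forward strand) lies 35.9 kb upstream of *Cd8a* (ENSMUSG00000053977.7, 71323421 to 71329165, forward strand), and no other protein-coding midpoint falls between them. *Cd4* (ENSMUSG00000023274.7, 124814710 to 124838239, reverse strand) is 53.5 Mb away from *Cd8a*.

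What sat4C can read at these genes depends on MfeI, the enzyme that cut the genomic fragments at CAATTG. Of 492091 MfeI sites on the 20 called chromosomes of mm9, 60.1% have at least 1 called fragment end. *Cd8b1* is the only coreceptor gene with called ends in its body. It has 3 of them at 2 MfeI sites, all inside intron 5 of a transcript with 6 exons, at 71285025, 71285102 and 71285173. *Cd8a*, with 5.75 kb the shortest of the genes, contains 0 MfeI sites. *Cd4* spans 23.5 kb and contains 1 MfeI site (124816974, intron 8) that has no called end. Thus 2 of the 3 bodies hold no fragment end, which is also so for 37.5% of all protein-coding genes, and the calls of *Cd4* and *Cd8a* are interpolated from ends beside them.

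The 3 ends inside *Cd8b1* carry the one place where a call changes within a coreceptor gene. The forward strand of mm9 is shown over 60 bases with the MfeI site in capitals, at chr6:71285025-71285084, chr6:71285119-71285178 and chr6:71285173-71285232.
Cd8b1 end 71285025, non-PAD in thymus: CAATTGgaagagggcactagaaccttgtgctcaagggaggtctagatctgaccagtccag
Cd8b1 end 71285102, non-PAD in thymus: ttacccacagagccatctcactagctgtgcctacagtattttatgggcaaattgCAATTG
Cd8b1 end 71285173, PAD in thymus: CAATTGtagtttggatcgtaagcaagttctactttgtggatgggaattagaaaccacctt

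The second and the third run end and begin in the same CAATTG, so these ends are both sides of a single cut. The end at 71285102 belongs to a fragment that is flanked by MfeI sites on both sides. In ESCs, NPCs and ACs all 3 ends were PAD, whereas in the thymus the upstream 2 were non-PAD and the third was PAD.

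*Cd4* and *Cd8a* have no ends of their own, so the last called end before each body is shown next. The ends on both sides of the thymus border downstream of *Cd8a* follow, again with CAATTG in capitals. Their labels refer to this border only, as further thymus PAD ends lie downstream of it. The ends beside *Cd4* and *Cd8a* were chosen after their calls were seen. They lie at chr6:124814353-124814412 and chr6:71321878-71321937 outside any protein-coding gene, and at chr6:71358073-71358132 and chr6:71369766-71369825 in introns 4 and 2 of *Rmnd5a*, the gene downstream of *Cd8a*.
last end before the Cd4 body: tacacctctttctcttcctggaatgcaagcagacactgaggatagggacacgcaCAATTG
last end before the Cd8a body: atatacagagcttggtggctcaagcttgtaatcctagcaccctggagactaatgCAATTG
last PAD end downstream of Cd8a in thymus: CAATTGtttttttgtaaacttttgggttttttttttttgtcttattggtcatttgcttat
first non-PAD end downstream of Cd8a in thymus: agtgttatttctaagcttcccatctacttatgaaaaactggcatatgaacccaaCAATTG

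The first of these sites belongs to the end at 124814241, which is 469 bp from the *Cd4* body on the side where the gene ends. On the promoter side the next called end is 37.5 kb away at 124875740, in the last exon of *A230083G16Rik*. The *Cd4* midpoint therefore sits in a gap of 61.5 kb without a called end, a gap wider than at 93.4% of genes (median 18.5 kb). *Cd8a* is bracketed more closely, with ends 1.73 kb before and 10.5 kb after its body and a gap of 17.9 kb. At *Cd8b1* the gap around the midpoint was 18.5 kb.

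*Cd4* was in a PAD in ESCs and NPCs and in a non-PAD in ACs and thymus. *Cd8a* was in a PAD in all 4 cell types. *Cd8b1* was in a PAD in ESCs, NPCs and ACs and in a non-PAD in thymus. Of 12 calls, 9 were PAD. In ESCs 3 of 3 genes were in PADs, against 46.5% of all protein-coding genes, and in NPCs 3 of 3 against 68.5%. In ACs 2 of 3 were in PADs against 34.9%, and in the thymus, the tissue in which these genes are used, 1 of 3 against 26.1%. *Cd8a* and *Cd8b1* lay in the same PAD in ESCs, NPCs and ACs, so their calls are not separate observations there. By midpoint the thymus calls thus separated the chains of CD8, placing the alpha chain gene in a PAD and the beta chain gene outside. The split rests on a border inside *Cd8b1*, with 15.9% of its body in the PAD of *Cd8a*. None of these combinations is rare: 12.2% of genes had the 4 calls of *Cd4*, 14.8% those of *Cd8a* and 11.1% those of *Cd8b1*.

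**Figure D1:**
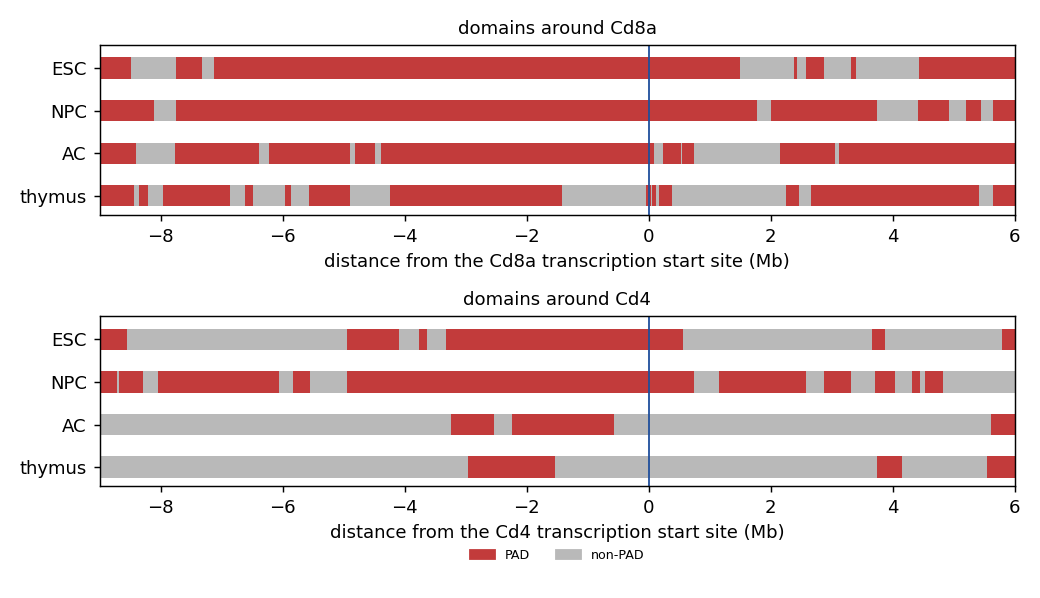
PADs (red) and non-PADs (gray) in 4 cell types around *Cd8a* (top) and *Cd4* (bottom), plotted by distance from the transcription start site in Mb, with the start site as a blue line. *Cd8a* lay deep inside PADs of ESCs and NPCs and in a narrow PAD of thymus, whereas *Cd4* lay in wide domains in every cell type.

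In ESCs *Cd8a* and *Cd8b1* shared 1 PAD of 8.62 Mb (64197989 to 72814900) with 1163 fragment ends and 70 protein-coding genes. Only 12 of the 1364 ESC PADs were larger. In NPCs they shared a PAD of 9.52 Mb (63575740 to 73093642) with 1341 ends and 74 genes, and 17 of 1125 were larger. The CD8 genes thus lay in some of the widest PADs of both cell types, where the median PAD measured 476 kb in ESCs and 833 kb in NPCs. These ranks and medians count each domain once, however many genes it holds. The domain size over all genes was not tabulated, so the width is not shown to be unusual for a gene.

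Borders were far away in these cells. The midpoint of *Cd8a* was 1.49 Mb from the nearest border in ESCs and 1.77 Mb in NPCs, farther than 83.2% and 79.8% of genes. For *Cd8b1* the distances were 1.53 Mb and 1.81 Mb. All 101 fragment ends centered on either gene were PAD in both cell types.

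In ACs the CD8 genes were still together in a PAD, but near its edge. This PAD measured 4.48 Mb (66928569 to 71413098) with 537 ends and 23 genes. Its right border was 83.9 kb beyond the end of *Cd8a* and 126 kb beyond that of *Cd8b1*. From the midpoints the border was 86.8 kb away for *Cd8a* and 133 kb for *Cd8b1*, with 10.3% and 15.1% of genes closer to one. The non-PAD behind it was short, 139 kb with 25 ends, and held *Rnf103* and *Chmp3*. A further PAD of 293 kb followed.

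In the thymus the borders lay within the CD8 locus. *Cd8a* was in a PAD of 78.7 kb (71285138 to 71363832), whose only protein-coding midpoint was its own. Of 845 thymus PADs 737 were larger, and the median was 638 kb. The PAD rests on 11 fragment ends at 9 MfeI sites, of which 9 ends lie upstream of *Cd8a* and 2 downstream. Of those upstream, 5 fall within 359 bp, while the widest step between neighboring ends inside the PAD was 25.6 kb. Runs this short were not usual, with 85 of the 845 thymus PADs (10.1%) having at most 11 ends and 24 protein-coding genes in all lying in such PADs. Where runs under 5 fragment ends were absorbed into their surroundings, the PAD kept its call but measured 425 kb, as the interruptions downstream of *Cd8a* are runs of 2 ends.

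**Figure D2:**
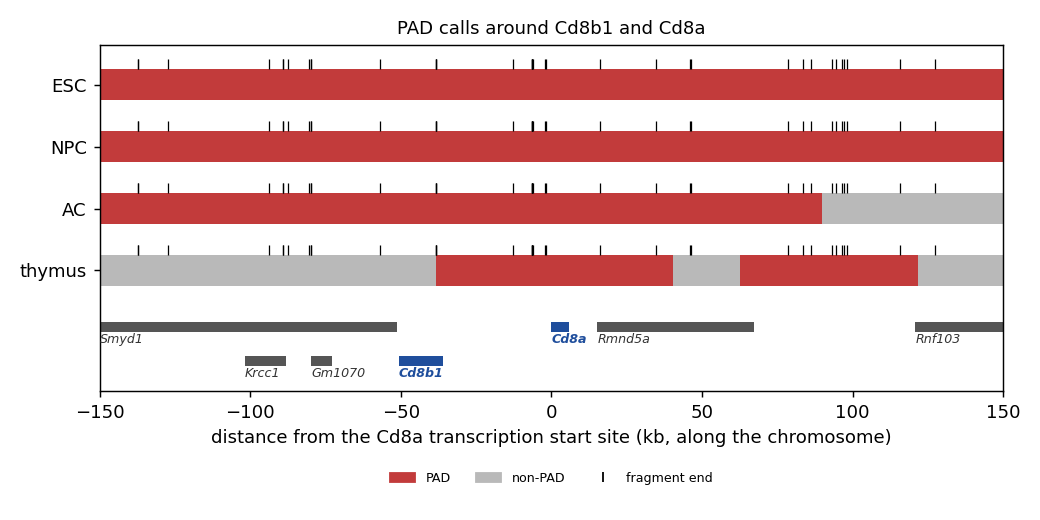
PAD (red) and non-PAD (gray) calls around *Cd8b1* and *Cd8a* (blue bars), by distance from the *Cd8a* start site in kb, with fragment ends as ticks and other protein-coding genes as gray bars. In thymus the left border of the 78.7 kb PAD falls inside *Cd8b1* and the right border inside *Rmnd5a*, whereas in ACs the nearest border lies beyond *Rmnd5a*.

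The left border of the thymus PAD lay inside *Cd8b1*, at 71285138 in intron 5, 12.3 kb from the start of the gene and 2.33 kb from its end. The ends that define it are 71 bp apart, both sides of the MfeI site shown above. The next end upstream is the one at 71285025, which was non-PAD, and the next downstream lies at 71310755, beyond the gene, and was PAD. As a result 15.9% of the *Cd8b1* body was in the PAD of *Cd8a*, and the rest in a non-PAD.

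A body crossing a border was uncommon in all cell types. It occurred in 2.35% of genes in thymus, where 1 of the 3 coreceptor genes crossed, and in 3.70% in ESCs, 3.07% in NPCs and 2.86% in ACs, where 0 of 3 did. The midpoint of *Cd8b1* was 4.99 kb from the border, with 0.533% of genes closer to one in thymus. Measured from its transcription start site the distance was 12.3 kb. The call of *Cd8b1* was non-PAD by midpoint, by start site and by the majority of the body. It became PAD where any overlap with a PAD was counted, so it depends on that choice.

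The non-PAD of *Cd8b1* extended upstream for 1.38 Mb (69903854 to 71285137) with 165 ends and 11 protein-coding genes, and 245 of 838 thymus non-PADs were larger. Downstream of *Cd8a*, the right border at 71363833 lay 34.7 kb past the end of the gene in intron 3 of *Rmnd5a*. Its ends are 11.5 kb apart, wider than at the left border. Such spacing is not the error of a border, which is not known. The authors caution that cell-to-cell differences limit how exactly PAD boundaries can be defined. Behind it a non-PAD of 22.1 kb with 2 ends, a PAD of 59.2 kb with 9 ends and 0 gene midpoints, a non-PAD of 43.4 kb with 2 ends and a PAD of 222 kb with 48 ends followed each other. Non-PADs of at most 2 ends made up 2.98% of those in thymus, and the pair downstream of *Cd8a* held the midpoints of *Rmnd5a* and *Rnf103*.

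Within 100 kb of the *Cd8a* body there were 31 called ends, of which 31 were PAD in both ESCs and NPCs, 26 in ACs and 19 in thymus. For *Cd8b1* the count was 26 of 26 ends in ESCs, NPCs and ACs and 11 of 26 in thymus. Among the 101 ends centered on *Cd8a*, 76 were PAD in ACs and 55 in thymus, and among those centered on *Cd8b1* 76 and 45. Both states thus occurred around each CD8 gene in the thymus. This restates the borders within the locus, since a window across a border holds both states. The share of PAD ends over all ends, and of mixed windows over all genes, are not given here. In ACs the 101 ends around each gene were mixed as well, whereas within 100 kb only those around *Cd8a* were.

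*Cd4* differed from the CD8 genes in that no border came near it in any cell type. In ESCs it was in a PAD of 3.90 Mb (121508297 to 125408040) with 379 ends and 86 genes, and in NPCs in a PAD of 5.67 Mb (119900281 to 125573342) with 626 ends and 108 genes. In ACs it was in a non-PAD of 6.18 Mb (124271972 to 130451746) with 886 ends and 129 genes. In thymus the non-PAD measured 5.28 Mb (123299970 to 128583068), with 700 ends and 92 genes. All were wide for their kind: 65 of 1364 ESC PADs, 54 of 1125 NPC PADs, 25 of 1034 AC non-PADs and 63 of 838 thymus non-PADs were larger. Here too the ranks count domains and not genes.

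**Figure D3:**
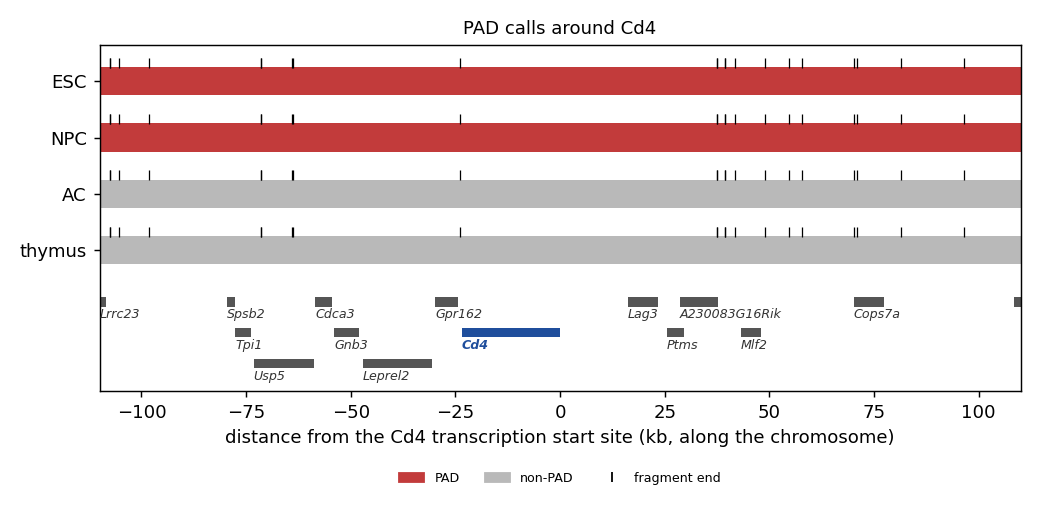
PAD (red) and non-PAD (gray) calls around *Cd4* (blue bar) by distance from its start site in kb, with fragment ends as ticks and other protein-coding genes as gray bars. The body of *Cd4* lies in a stretch of 61.5 kb without a called end, and the ends on both sides carry the same call in each cell type.

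The nearest border of *Cd4* was 582 kb away in ESCs, 747 kb in NPCs, 555 kb in ACs and 1.53 Mb in thymus. These distances were ordinary, with 56.3%, 55.4%, 44.2% and 62.8% of genes closer to a border. Within 100 kb of the body, 22 of 22 ends were PAD in ESCs and NPCs and 0 of 22 in ACs and thymus. The wide gap around *Cd4* therefore had the same call on both sides in each cell type. In ACs the nearest border was the right edge of a PAD of 1677 kb with 25 genes, on the side where *Cd4* ends.

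**Figure D4:**
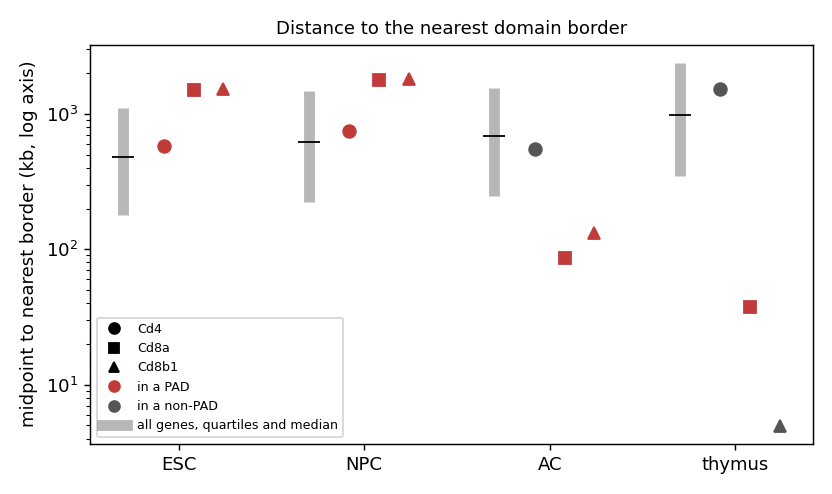
Distance from the midpoint of each coreceptor gene to the nearest domain border in kb (log axis), red in a PAD and dark gray in a non-PAD, beside the quartiles (gray bar) and median (black line) of all protein-coding genes. *Cd8a* and *Cd8b1* go from above the upper quartile in ESCs and NPCs to below the lower quartile in ACs and thymus, whereas *Cd4* stays between the quartiles.

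Across all genes the median distance to a border was 477 kb in ESCs, 618 kb in NPCs, 683 kb in ACs and 982 kb in thymus. *Cd8a* rose with the median from 1.49 Mb in ESCs to 1.77 Mb in NPCs, but was at 86.8 kb in ACs and 37.5 kb in thymus. *Cd8b1* went from 1.53 Mb in ESCs to 1.81 Mb in NPCs, and was at 133 kb in ACs and 4.99 kb in thymus. The loci also differ in GC content and gene density, and whether these bear on the calls was not tested. The 500 kb around *Cd4* has a GC content of 48.6%, higher than for 86.2% of genes, and its surroundings hold 47 protein-coding genes within 500 kb including itself, more than for 93.4% of genes. The GC content is 43.0% around *Cd8a* and 43.3% around *Cd8b1*, near the median of 44.2%, and each has 16 genes within 500 kb, which is the median.

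Since no border lay within 500 kb of *Cd4*, all 46 other protein-coding genes within that distance had its calls in each cell type. Within 1000 kb the share of neighbors in PADs was 94.3% in ESCs and 98.1% in NPCs, against 5.66% in ACs and 0 in thymus. Among the 46 were *Lag3*, which encodes an inhibitory receptor related to CD4, *Ptpn6*, a phosphatase that dampens lymphocyte signaling, and *Cd27*, *Ltbr* and *Tnfrsf1a*, receptors of the tumor necrosis factor receptor family. *Gapdh*, *Tpi1* and *Eno2*, which encode enzymes of glycolysis, were also among them.

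Around *Cd8a* 15 of 15 neighbors were in PADs in ESCs and NPCs, 13 in ACs and 3 in thymus. The genes upstream of *Cd8b1* were PAD in the first 3 cell types and non-PAD in thymus, among them *Smyd1*, a methyltransferase of striated muscle, and *Fabp1*, the liver fatty acid binding protein. Those in thymus PADs were *Chmp3*, a subunit of the ESCRT-III membrane scission complex, *Kdm3a*, a histone H3 lysine demethylase, and *Reep1*, a shaper of the endoplasmic reticulum. Of these, *Kdm3a* and *Reep1* had the 4 calls of *Cd8a*, so that 13.3% of its neighbors had them, near the 14.8% of all genes. Of the 15 genes within 500 kb of *Cd8b1*, 10 had its 4 calls, against 11.1% of all genes.

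In the thymus *Cd8a* differed from both of the genes next to it, *Cd8b1* and *Rmnd5a*. Adjacent protein-coding genes had different thymus calls in 4.53% of pairs, and 0.727% of genes differed from the neighbor on each side. The difference from *Rmnd5a* rests on a non-PAD of 2 fragment ends. With runs under 5 or under 3 ends absorbed, *Cd8a* shared its PAD with *Rmnd5a*, *Rnf103*, *Chmp3*, *Kdm3a* and *Reep1*, so that 5 of its neighbors were in thymus PADs and only *Cd8b1* beside it was not. *Rmnd5a* encodes a subunit of a ubiquitin ligase, and 57.6% of its body was in PADs although its midpoint was not. In ACs the calls of *Cd8a*, *Cd8b1* and *Rmnd5a* were the same, and the change came at *Rnf103*, a ubiquitin ligase gene.

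**Figure D5:**
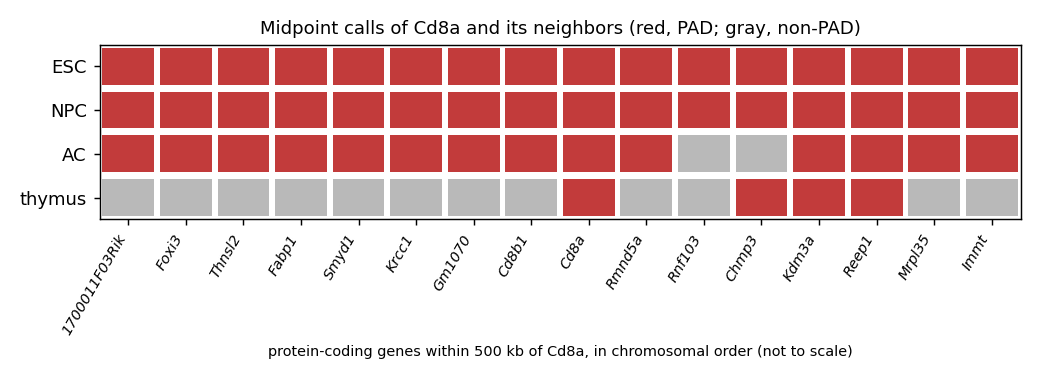
Midpoint calls (red, PAD; gray, non-PAD) in 4 cell types for *Cd8a* and the 15 other protein-coding genes within 500 kb, in chromosomal order and not to scale. In thymus *Cd8a* is a PAD gene between the non-PAD genes *Cd8b1* and *Rmnd5a*, and *Chmp3*, *Kdm3a* and *Reep1* downstream are in PADs, while the non-PAD calls of *Rmnd5a* and *Rnf103* rest on runs of 2 fragment ends.

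Genes that act with the coreceptors had PAD calls to be read against the share of all genes, which was 46.5% in ESCs and 68.5% in NPCs, with 34.9% in ACs and 26.1% in thymus. Of 6 partners in T cell signaling or antigen recognition, 2 were in PADs in ESCs, 4 in NPCs, and 1 each in ACs and thymus. With 6 genes, these counts are too few to say how near they lie to the shares. *Lck*, the kinase that binds the tails of CD4 and CD8, was in a non-PAD in all 4 cell types, as was *B2m*, the light chain of MHC class I. *Lat*, an adaptor of the T cell receptor, had the 4 calls of *Cd4*, as did *Lag3*, which lies beside it in the same domains. *Zap70*, a kinase of the T cell receptor, was PAD in NPCs and non-PAD in the other 3 cell types. *Ptprc*, the CD45 phosphatase, was non-PAD in ESCs and PAD in the other 3, and was the 1 partner in a thymus PAD.

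Of 15 transcription factor genes known to control T cell development or the coreceptor genes, 6 were in PADs in ESCs and again 6 in ACs, with 14 in NPCs and 4 in thymus. The same shares of all genes apply, and the NPC count was the one farthest from its share. *Zbtb7b*, which encodes ThPOK, the factor of the CD4 lineage, and *Runx3*, the factor of the CD8 lineage that acts on the *Cd4* silencer, had the same calls: PAD in NPCs and non-PAD in ESCs, ACs and thymus. *Runx1*, *Bcl11b*, *Satb1*, *Tcf7* and *Tcf3* had these calls as well, the most common combination, found in 23.9% of all genes. *Cbfb*, the partner subunit of the Runx factors, had the 4 calls of *Cd8b1*, and *Lef1* those of *Cd4*. *Gata3*, *Tox*, *Patz1* and *Ikzf1* were in PADs in all 4 cell types, as was *Cd8a*, so that PAD calls in the thymus included genes with a role there. *Myb* was in non-PADs throughout. Of all 21 listed genes, ESC PADs held 8, NPC PADs 18, AC PADs 7 and thymus PADs 5, against 46.5%, 68.5%, 34.9% and 26.1% of all genes.

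The genes most like each coreceptor gene were sought among those with the same 4 calls and more than 1 Mb away, by the mean absolute difference of log10 (1 + distance to the nearest border in kb) over 4 cell types. For *Cd8a* the nearest was *Pspc1*, a paraspeckle protein gene on Chromosome 14, with a difference of 0.0842 against a median of 0.763 over 3292 genes. *Pspc1* was 1.04 Mb from a border in ESCs, 1.62 Mb in NPCs, 85.7 kb in ACs and 27.0 kb in thymus. *Fbxw15* (0.173) and *Fbxw24* (0.191), F-box genes on Chromosome 9, came next. As these genes were picked for the smallest differences, their likeness to *Cd8a* follows from the choice and is a description only.

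*Cd8b1* had no match as close. The nearest of 2460 genes were *Vmn2r121* (0.260), a vomeronasal receptor gene on Chromosome X, *Scaf8* (0.286) and *1110067D22Rik* (0.286), against a median of 0.902. For *Cd4* the nearest of 2672 genes were *Nrp2* (0.0531), a neuropilin on Chromosome 1, and *Gtf2h2* (0.0558) and *Naip1* (0.0579), which lie next to each other on Chromosome 13, against a median of 0.452. Distances to a border over 4 points are a description and carry no test.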

How the data were processed

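The authors mapped sat4C reads to the fragment ends of a reduced mm9 genome that lacked Chromosome Y, classified the ends by an HSMM in each replicate, and took the majority of the replicates, or their pool where they were tied. The deposited calls give PAD or non-PAD for 399232 fragment ends on 20 chromosomes in 4 columns, 1 per cell type, with 0 columns per replicate. For the aligner, no name is given in the sources used here. An end was placed at its start, runs of ends with equal calls formed domains, and genes were taken from GENCODE vM1. Of 22380 protein-coding genes, 51 lay outside the called sequence. MfeI and NlaIII sites and printed bases came from the NCBIM37 sequence. Ends within 100 kb of a body, 101 ends centered on a midpoint, neighbors within 500 kb and GC in 500 kb were tabulated. Domain building was tested on simulated calls. Python 3.11.15, numpy 2.4.6, pandas 2.3.3 and matplotlib 3.10.9 were used. The members, the lists of 6 partners and 15 regulators and the alternatives were chosen with earlier results of these data known, and the named genes were the members, these lists, the neighbors and the 3 genes most like each member. Comparisons of adjacent genes were added after the calls were seen. No test was made.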

Additional observations from a re-analysis of the deposited data

How the results depend on the processing

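Of the 12 calls, 9 were PAD by midpoint, by transcription start site, by the majority of the body, with runs under 5 or under 3 fragment ends absorbed, and with borders at outer ends or at the deposited interval edges. By any overlap 10 were PAD, the change being *Cd8b1* in thymus. With runs under 5 or under 3 ends absorbed, the thymus PAD of *Cd8a* grew from 78.7 kb to 425 kb. Its size was 72.9 kb between outer ends and 84.4 kb at deposited edges, an alternative chosen after seeing the data. Within 1000 kb the share of neighbors in PADs was 5.66% for *Cd4* in ACs and, in thymus, 10.7% for *Cd8a* and 17.4% for *Cd8b1*. Over all genes it was 34.9% in ACs and 26.1% in thymus. By any overlap 6 neighbors of *Cd8a* were in thymus PADs, and 5 with runs under 5 or under 3 ends absorbed, which was tried after seeing the data. Of 60 distances to a border 59 were within 1.5 times the value given, as were 58 of 60 domain sizes, the exceptions being those of *Cd8b1* by start site (12.3 kb) and *Cd8a* with short runs absorbed. No paired analysis was possible because the calls hold 1 consensus per cell type and no result comes from a test. Reads and calls of single replicates were not analysed here, so no replicate was left out and the error and depth of a call are not known.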
